A study of Homo sapiens with 18 samples.

Results

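The transcripts of 9 genes of the AP-1 family and its partners were followed in A549 cells, a human lung adenocarcinoma line, treated with silica nanoparticles (NPs). The genes were *FOS*, *FOSB*, *FOSL1*, *FOSL2*, *JUN*, *JUNB*, *JUND*, *ATF3* and *MAFF*. They were chosen by name, as all probes whose gene name in the scanner files is one of these symbols, and gave 15 probes of the 41000 on the array. All 15 passed the filter on missing values, as did 28665 probes in all.

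Of the 18 one-colour arrays, 3 came from cells given SM30 NPs of 9 nm, with 2 h of exposure in serum-free medium and 3 h of recovery in complete medium. For AS30 NPs of 18 nm, 3 arrays came from 3 h of recovery after the same exposure and 3 from 22 h. Each of these 3 groups had its own 3 control arrays, from cells taken through the same steps without NPs, and all particles were given at 0.02 mg/mL. SM30 was measured at 3 h only, and every group comes from 1 cell line, with biological replicates named A, B and C.

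AP-1 is a transcription factor built as a pair of basic leucine zipper (bZIP) proteins. Members of the FOS family pair with those of the JUN family, and JUN proteins also pair among themselves and with ATF proteins. The pairs bind the AP-1 site or the related cyclic AMP response element (CRE). Many of the genes are immediate early genes, whose RNA rises and decays quickly after growth factors, serum or stress reach a cell. ATF3 is a stress-induced bZIP protein known mostly as a repressor, and MAFF is a small MAF protein that lacks a transactivation domain.

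The 6 genes printed below had the largest changes after SM30 or the widest spread between arrays. The stretches just before their starts are shown because each holds a match to a CRE-like motif. They are the 140 bases before the RefSeq start, read 5′ to 3′ on the gene's strand, from build GRCh38.p14. Capitals mark matches, on either strand, to TGACNTCA (CRE-type site) or TGACGT (the core of the CRE), which overlap where the CRE is complete. Neither motif lies in all 6 stretches, and *JUND*, not printed, holds the core too.
*JUN* (chr1:58784048-58784187, minus strand): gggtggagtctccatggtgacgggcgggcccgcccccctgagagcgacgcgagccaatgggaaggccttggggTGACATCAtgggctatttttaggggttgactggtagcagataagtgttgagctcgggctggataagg
*FOSL2* (chr2:28392718-28392857, plus strand): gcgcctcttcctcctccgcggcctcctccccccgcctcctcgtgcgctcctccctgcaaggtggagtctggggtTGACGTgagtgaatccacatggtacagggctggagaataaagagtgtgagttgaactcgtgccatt
*MAFF* (chr22:38201854-38201993, plus strand): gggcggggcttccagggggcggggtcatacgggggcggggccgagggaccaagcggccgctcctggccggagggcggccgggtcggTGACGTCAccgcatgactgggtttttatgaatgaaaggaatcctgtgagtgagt
*ATF3* (chr1:212565267-212565406, plus strand): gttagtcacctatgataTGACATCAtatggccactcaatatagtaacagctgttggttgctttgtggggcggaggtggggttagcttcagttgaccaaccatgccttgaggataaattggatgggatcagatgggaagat
*FOSB* (chr19:45467856-45467995, plus strand): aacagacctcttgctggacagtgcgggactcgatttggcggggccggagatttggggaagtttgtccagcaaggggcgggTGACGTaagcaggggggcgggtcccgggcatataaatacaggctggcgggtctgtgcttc
*FOS* (chr14:75278688-75278827, plus strand): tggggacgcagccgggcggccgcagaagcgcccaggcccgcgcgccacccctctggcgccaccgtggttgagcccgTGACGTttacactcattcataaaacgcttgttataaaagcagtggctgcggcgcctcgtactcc

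The RefSeq table of promoters held 8 of the 9 genes, in 10 entries. *ATF3* and *MAFF* had 2 entries each, of which the first is shown, and *FOSL1* had none. The second entries of *ATF3* and *MAFF* held no match to the CRE-type site, the CRE core or the AP-1 site. The CRE-type site lay in this stretch of 3 of the genes, *JUN*, *MAFF* and *ATF3*, and in 5.19% of the 35116 promoters of the table. The CRE core lay in it in 5 of the genes, *FOS*, *FOSB*, *FOSL2*, *JUND* and *MAFF*, against 5.2% of all promoters. It began 64 bases before the start in *FOS*, 60 in *FOSB*, 66 in *FOSL2* and 54 in *MAFF*, and the CRE-type site began 67 before it in *JUN* and 123 in *ATF3*. The AP-1 site itself, TGANTCA, was in none of these stretches and in 3.92% of all promoters. *FOSL2* holds one copy 5 bases after its start. These are matches of letters, not sites shown to be bound, and the motifs were chosen with the sequences in view.

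All values below are log2 of the processed signal after quantile normalization, one per array. A ratio divides a treated array by the control that carries its letter, the test is limma's moderated test, and a gene is called where its brightest probe has a Benjamini-Hochberg adjusted p under 0.05 over all probes tested. Arrays of RNA from whole cultures cannot tell a change in every cell from a change in the share of cells that carry the RNA. The signals of different probes are not compared with each other.

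After SM30 NPs and 3 h of recovery, *JUN*, *FOSL2* and *MAFF* rose, and 8 of the 9 genes lay above their controls on all 3 arrays, where 19.2% of all probes did. The 3 genes called of 9 compare with 7.49% of all probes called in this comparison, and 4.35% called higher. No gene of the family was called lower, and 3.13% of all probes were. Over the 15 probes, 6 were called, all higher, 2 of them further *FOSL2* probes and 1 the second *ATF3* probe. The median log2 change of the 9 genes was 0.71, where that of all probes tested was -0.05.

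*JUN*, the partner that gives AP-1 much of its activity, had signals of 13.98, 13.90 and 14.01 on SM30 arrays A, B and C. Its controls read 12.82, 12.60 and 12.43. The groups were far apart, with the lowest SM30 array more than 1 unit above the highest control. The change was 1.35 ± 0.17 (SE, n = 3 pairs), or 2.55-fold, with an adjusted p of 0.0047. The probe, at chr1:59020317-59020376 of build hg18, is spotted 10 times on each array, and the SD over its spots was 0.03 to 0.15.

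*FOSL2* encodes Fra-2, a FOS protein known for slower and longer-lasting induction than FOS itself. Its brightest probe, at chr2:28492611-28492670 of hg18, read 11.83, 11.80 and 11.76 after SM30 and 10.98, 11.07 and 11.21 in the controls. The SM30 arrays lay within 0.07 of each other and all above the controls. The change was 0.71 ± 0.13 (SE, n = 3 pairs, limma adjusted p = 0.0172). Of its 3 other probes, those at 28489024-28489083 and 28490679-28490738 of the same chromosome gave 1.44 and 0.93, both called. The third, at 28488651-28488710, gave 0.52 with an adjusted p of 0.339 in limma. On that probe the SM30 array of replicate B read 8.13, below all 3 controls, and the other two read 9.60 and 9.51. The 4 probes of *FOSL2* therefore differed in size, and 1 of them in direction on 1 array.

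*MAFF* read 10.06, 10.16 and 9.99 after SM30 and 8.87, 9.02 and 9.02 in the controls (probe at chr22:36941930-36941989 of hg18). The change was 1.098 ± 0.25 (SE, n = 3 pairs), or 2.14-fold, with an adjusted p of 0.0338 in limma. The groups did not overlap. With normexp background correction the change was 0.57 (limma adjusted p = 0.0564), and with no filter on dim spots it stayed at 1.098 with an adjusted p of 0.0657, so both end the call.

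For *ATF3*, the brightest probe (chr1:210860479-210860538 of hg18) missed the threshold narrowly and the dimmer probe (chr1:210859460-210859519) passed it. The brightest read 13.05, 12.48 and 12.94 after SM30, against 11.60, 11.65 and 11.60 in the controls. Its change was 1.21 ± 0.31 (SE, n = 3 pairs, limma adjusted p = 0.0538). The dimmer probe read 8.46, 8.15 and 8.19 against 6.98, 6.90 and 6.90, a change of 1.34 with an adjusted p of 0.0379. On both probes the SM30 arrays all lay above the controls, and replicate B was the lowest of the 3.

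*FOSB* had the largest change of the 9 genes but no call. It read 9.94, 9.96 and 9.61 after SM30, and 8.43, 8.36 and 8.47 in the controls. The 3 controls lay within 0.11 of each other, and all SM30 arrays were more than 1 unit above them. The change was 1.41 ± 0.53 (SE, n = 3 pairs, limma adjusted p = 0.144), since the SE is shared with the AS30 ratios, where this gene varied more. Without the pair of replicate B at 22 h, the estimate stayed at 1.41 with an SE of 0.22 and an adjusted p of 0.0125. *ATF3* was called too without that pair, at an adjusted p of 0.0215 in limma, or without the pair of replicate C at 22 h (0.0455).

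*FOS*, the founding partner of JUN, read 11.39, 11.09 and 11.17 after SM30 and 10.84, 10.91 and 10.60 in the controls, so the groups did not overlap. Its change of 0.43 had a 95% interval of -0.67 to 1.53. *FOSL1*, which encodes Fra-1, gave 0.44 (0.10 to 0.79) and *JUND* 0.52 (0.18 to 0.87), with adjusted p of 0.113 and 0.076 in limma. *JUNB*, often described as a restraint on JUN, read 14.25, 14.33 and 14.26 after SM30, just under its controls at 14.33, 14.35 and 14.63. Its change was -0.16 (-0.56 to 0.25), and its second probe gave 0.01. *JUNB* was the one gene wholly below its controls, where 23.8% of all probes lay.

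**Figure D1:**
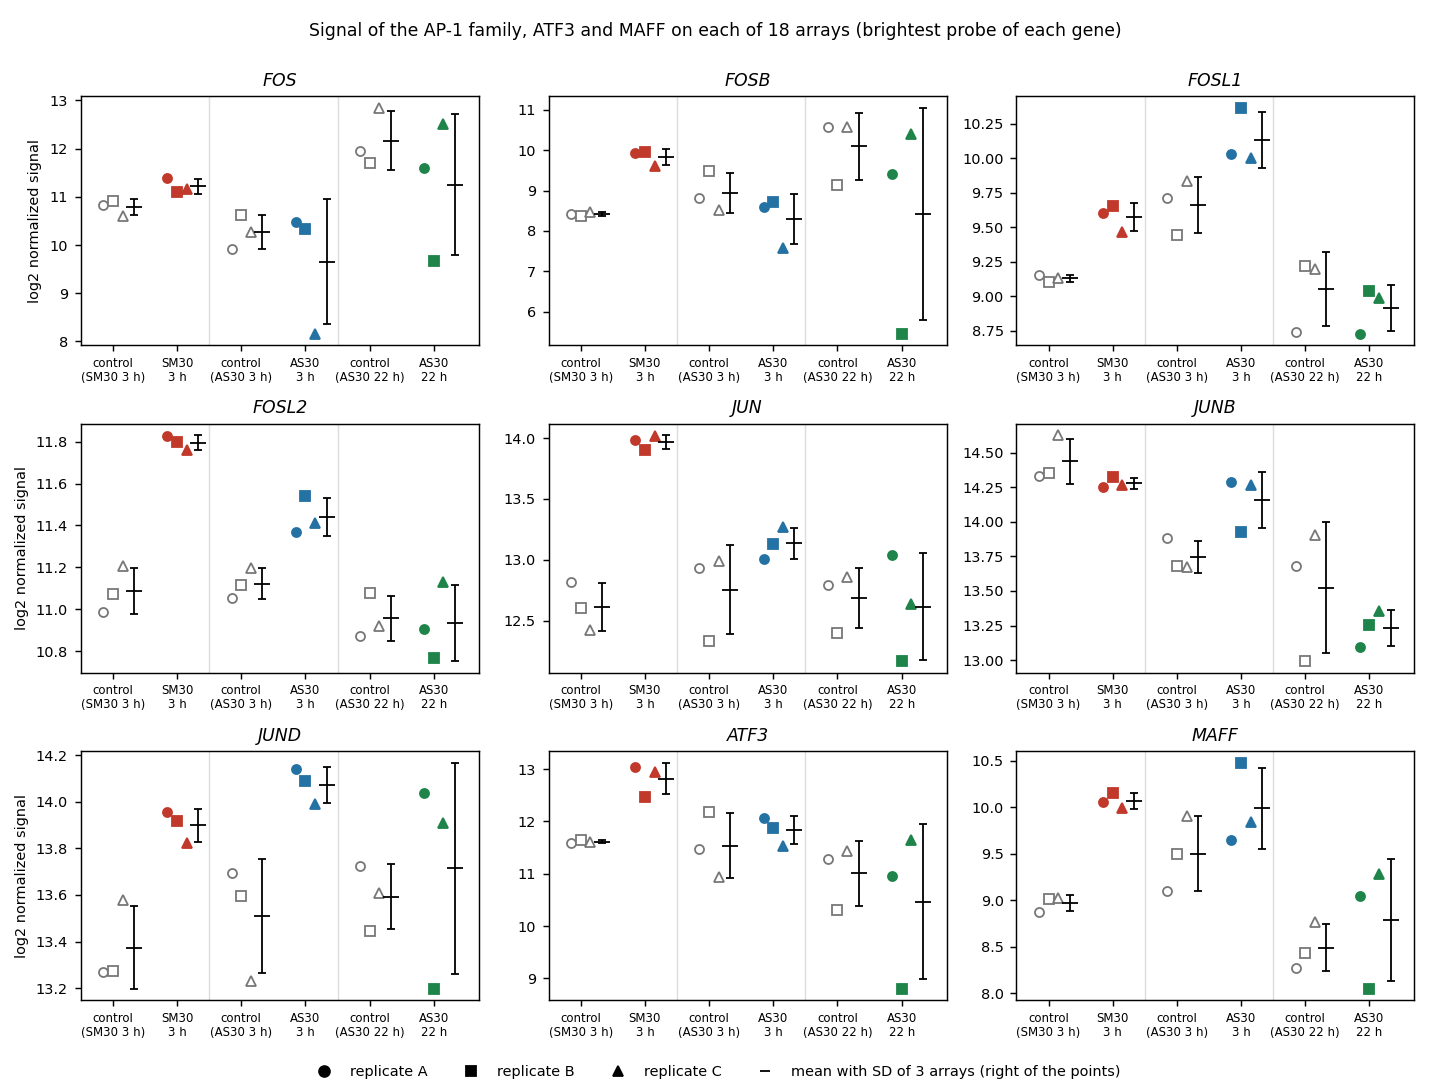
Log2 normalized signal (vertical axis) of the brightest probe of each gene on every array, by group (horizontal axis). Open symbols are control arrays, filled symbols treated ones, the shape gives the replicate, and the bar beside each group is its mean with the SD of 3 arrays. The SM30 arrays of *JUN*, from 13.90 to 14.01, lie above every other array, and AS30 22 h replicate B is the lowest array for *FOSB* at 5.45.

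The slides limit the SM30 result. SM30 replicate A shared a slide with the 3 SM30 controls, and replicates B and C were on another with no control. On the shared slide, replicate A minus the mean of the 3 controls was 1.37 for *JUN*, 0.74 for *FOSL2*, 1.09 for *MAFF*, 1.43 for *ATF3* and 1.52 for *FOSB*. With slide as a fixed block none of the genes was called, at adjusted p of 0.07 for *JUN*, 0.059 for *FOSL2* and 0.30 for *MAFF*, and 335 probes were called in all. Leaving out any 1 of the 3 SM30 pairs left *JUN* as the single call. *MAFF* also missed the threshold without AS30 3 h replicate A, at an adjusted p of 0.0557 in limma.

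After AS30 NPs and 3 h of recovery none of the 9 genes was called, and 2.52% of all probes were. At an unadjusted p under 0.05, 4 of the genes passed in limma, as did 24.4% of all probes in either direction. The 4 genes were *FOSL1*, *FOSL2*, *JUNB* and *JUND*, all with changes above 0. The median change of the 9 genes was 0.38 and that of all probes 0.01. On the arrays, 5 genes lay wholly above their controls, *FOSL1*, *FOSL2*, *JUN*, *JUNB* and *JUND*, and 13.2% of all probes did. None lay wholly below, as 10.6% of all probes did.

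The lowest adjusted p among the brightest probes was that of *JUND*, the JUN gene with the steadiest expression in most cells. It read 14.14, 14.09 and 13.99 after AS30 and 13.70, 13.60 and 13.23 in the controls. The change was 0.57 ± 0.15 (SE, n = 3 pairs, limma adjusted p = 0.0844). *FOSL2* read 11.37, 11.54 and 11.41 against 11.05, 11.12 and 11.20, a change of 0.32 (95% interval 0.03 to 0.61). Its 3 other probes gave 0.69, 1.07 and 0.34, so all 4 were above 0. *FOSL1* gave 0.47 on both of its probes, and *JUNB* 0.41 and 0.65.

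*JUN* read 13.00, 13.13 and 13.27 after AS30, and its controls 12.94, 12.33 and 12.99, so that the groups barely missed each other. The change was 0.38 (-0.01 to 0.77). *MAFF* gave 0.49 (-0.07 to 1.05), with pair C at -0.06. *ATF3* gave 0.29 (-0.42 to 1.01), with pair B at -0.31 and the other two near 0.6 (0.59 and 0.60).

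*FOS* and *FOSB* were the genes with changes below 0 at 3 h. *FOS* read 10.47, 10.34 and 8.16 after AS30 and 9.93, 10.63 and 10.27 in the controls. Replicate C stood more than 2 units under the others, and without that pair the change of -0.62 became 0.13. *FOSB* read 8.59, 8.71 and 7.58 against 8.82, 9.48 and 8.51, a change of -0.64 (-1.86 to 0.57). All 3 pairs of *FOSB* were below 0, while the groups overlapped.

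For AS30 at 3 h the treated arrays were all on one slide and the controls on another, each with 1 control array of the 22 h group. With slide as a fixed block, which rests on those 22 h controls, *FOSB* turned to 0.80 with an SE of 1.89 and *FOSL1* to -0.01, while *JUNB* went to 1.11 with an SE of 0.27, *ATF3* to 1.28 and *JUN* to 0.77, none called. Apart from those arrays, slide and treatment cannot be told apart in this comparison. With slide as a random block *FOSL1*, *FOSL2* and *JUND* were called higher, at an estimated correlation within slides of -0.08, where the fixed block called none of the 9.

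At 22 h of recovery after AS30 none of the 9 genes was called either, against 3.58% of all probes. The median change was -0.13 and that of all probes -0.005. In no gene did the 3 treated arrays all lie above or all lie below the controls, which 12.8% and 11.1% of all probes did. The changes of *FOSL1*, *FOSL2*, *JUN*, *JUNB* and *JUND* lay between -0.29 and 0.12. That of *MAFF* was 0.30 (-0.26 to 0.86). The treated arrays were all on one slide, which held only the control of replicate C. With slide as a fixed block, which rests on that control, the changes were -2.14 for *FOSB*, -1.59 for *FOS*, -0.97 for *ATF3* and -0.67 for *JUNB*. Those of the other genes lay between -0.28 and 0.11.

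The widest spread between replicates among the 9 genes was that of *FOSB* in this group. It read 9.42, 5.45 and 10.41 after AS30 at 22 h and 10.58, 9.14 and 10.57 in the controls. Replicate B was more than 3 units under the other two and not well above background, and the change of -1.67 ± 0.53 (SE, n = 3 pairs, limma adjusted p = 0.115) became -0.66 without that pair. *FOS* read 11.60, 9.66 and 12.51 against 11.96, 11.70 and 12.85, and its change of -0.91 became -0.35. For *ATF3* the signals were 10.96, 8.80 and 11.65 against 11.29, 10.30 and 11.44, and the change of -0.54 became -0.06. Replicate B was the lowest treated array for all 3 genes, and also for *JUN*, *JUND*, *FOSL2* and *MAFF*. On that array 56.9% of spots were well above background, the lowest share of its group, and the part of this in the low values was not tested. The control of replicate B was also the lowest of its group for *FOS*, *FOSB* and *ATF3*.

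**Figure D2:**
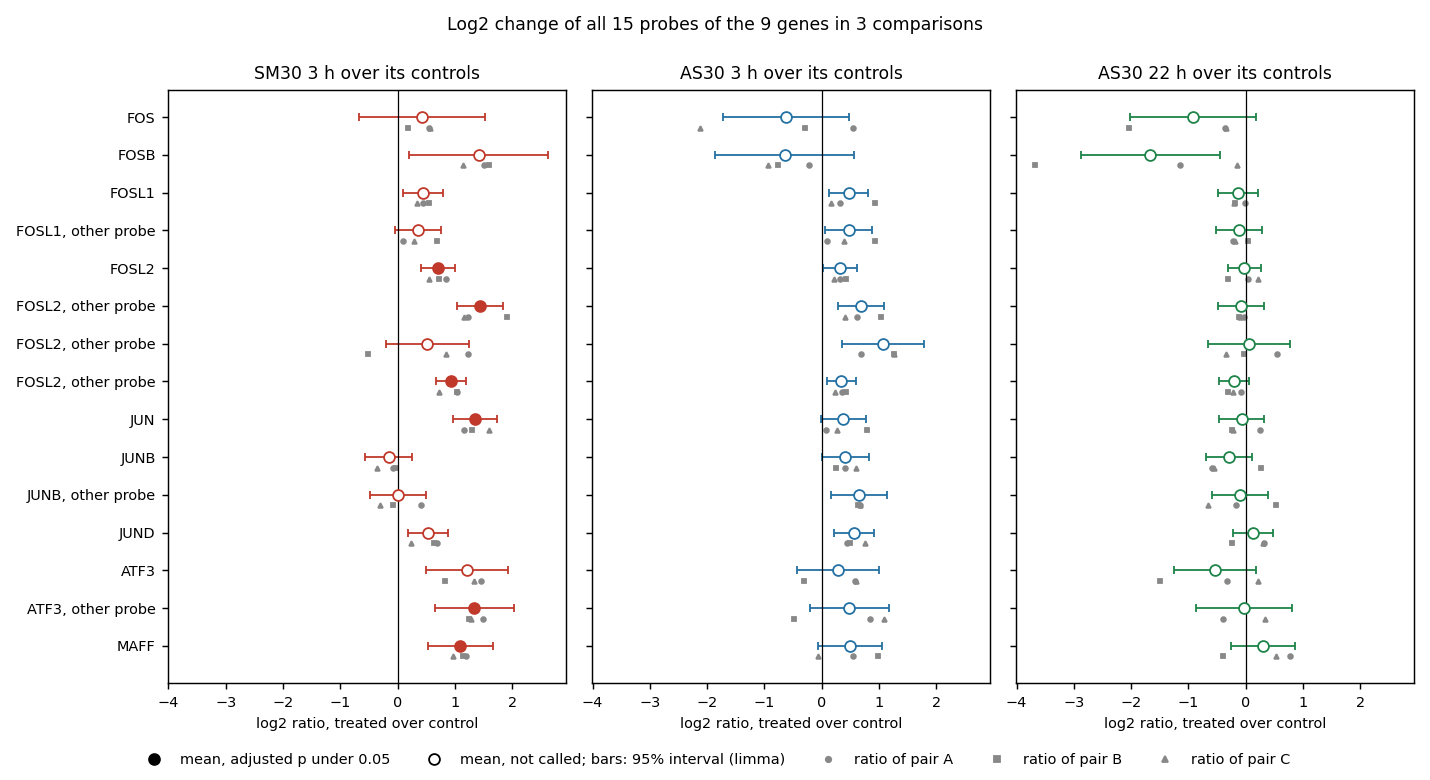
Mean log2 ratio of treated over control (horizontal axis) for all 15 probes (rows) in 3 comparisons, with the 95% interval from limma. Filled circles have an adjusted p under 0.05, and small grey symbols are the 3 pairs. Filled circles appear only after SM30, for *FOSL2*, *JUN*, *MAFF* and a second *ATF3* probe, and *FOSB* has a pair at -3.69 after AS30 at 22 h.

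Whether the responses to the smaller and the larger particles differed at 3 h was tested directly, as the SM30 ratio minus the AS30 ratio. None of the 9 genes passed, and 0.014% of all probes did. *FOSB* had the largest difference, 2.06 ± 0.75 (SE, limma adjusted p = 0.286), with the SM30 pairs at 1.51, 1.59 and 1.13 and the AS30 pairs at -0.23, -0.76 and -0.94. *JUN* differed by 0.97 (0.42 to 1.52, adjusted p = 0.221 in limma), its SM30 pairs of 1.16, 1.31 and 1.59 lying above the AS30 pairs of 0.07, 0.80 and 0.27. These intervals leave out 0 without adjustment for the number of probes. *FOSB* and *JUN* were the 2 of 9 genes with an unadjusted p under 0.05 in limma, which 14.6% of all probes had. With slide as a fixed block the differences were 0.72 for *FOSB*, 0.59 for *JUN*, 0.16 for *ATF3*, 0.63 for *FOSL2*, 0.48 for *FOSL1* and -1.29 for *JUNB*, none called.

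The differences of *ATF3* (0.91, -0.10 to 1.93), *MAFF* (0.61, -0.18 to 1.40) and *FOSL2* (0.39, -0.02 to 0.80) have intervals that include 0. Of the other *FOSL2* probes, 2 had intervals above 0, at 0.75 and 0.59, and the third gave -0.55. *FOSL1* and *JUND* differed by -0.03 (-0.51 to 0.46) and -0.04 (-0.53 to 0.45), so a difference of either sign of up to about 0.5 remains possible. *JUNB* was the one gene whose interval lay almost wholly below 0, at -0.57 (-1.14 to 0.003), and its second probe gave -0.64. The difference of *FOS*, 1.05 (-0.50 to 2.61), was 0.31 without AS30 3 h replicate C. Particle size, surface and stock differ together between SM30 and AS30, and their responses rest on different control groups and slides.

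For AS30, the ratio at 22 h minus that at 3 h was below 0 for all 9 genes, where 51.0% of all probes lay above 0. The differences ran from -1.02 for *FOSB* to -0.19 for *MAFF*. The genes were read on the same arrays, so their signs are not separate observations. None was called, with 0.0285% of all probes called. *FOSL1* (-0.60, -1.09 to -0.12) and *JUNB* (-0.71, -1.28 to -0.13) had intervals below 0, each with an adjusted p over 0.2 (0.225 and 0.227 in limma). They were the 2 of 9 genes with an unadjusted p under 0.05 in limma, which 16.9% of all probes had. Without replicate B at 22 h, *FOS* turned to 0.27 and *MAFF* to 0.16, and *FOSB* came to -0.01. With slide as a fixed block *FOSB* was at -2.94, *ATF3* at -2.25, *JUNB* at -1.78 (limma adjusted p = 0.0635), *JUN* at -1.02 and *FOSL1* at -0.27, none called. The other probe of *FOSL1* gave -0.59 and that of *JUNB* -0.75.

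**Figure D3:**
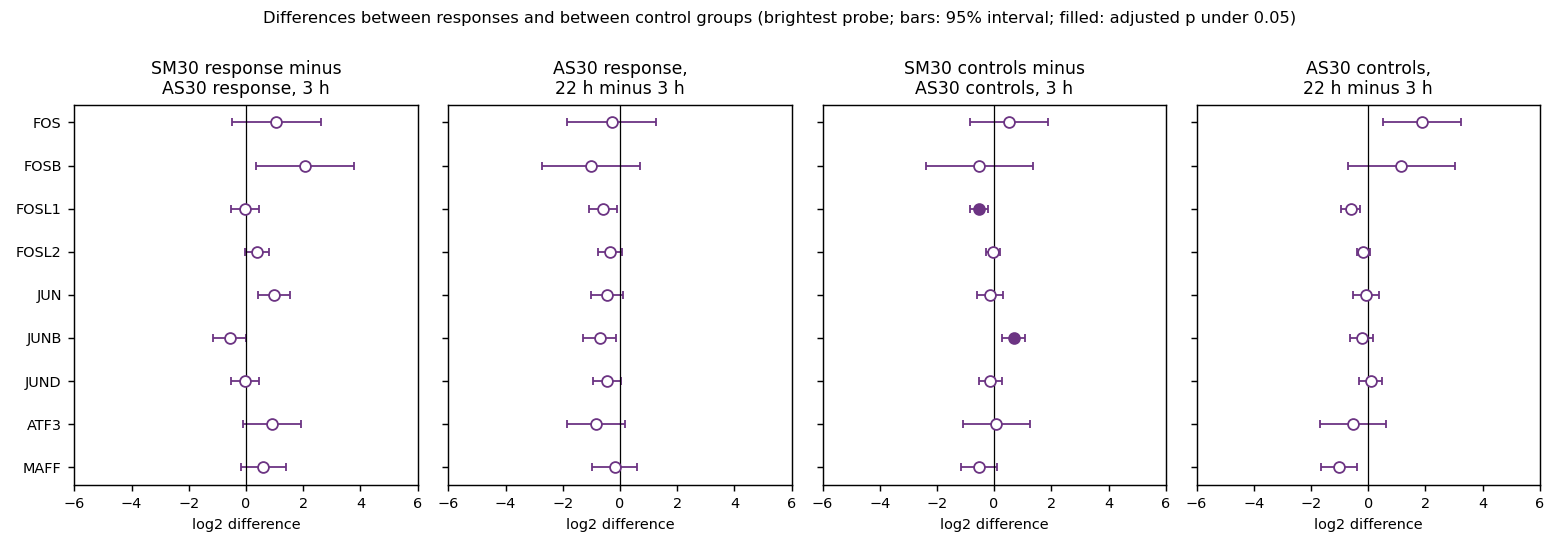
Log2 differences (horizontal axis) of the brightest probe of each gene (rows) between responses, in the 2 panels on the left, and between control groups, in the 2 on the right, with 95% intervals from limma. The filled points, *FOSL1* at -0.53 and *JUNB* at 0.69 between the controls at 3 h, are those with an adjusted p under 0.05.

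The control cells were not alike. The SM30 controls minus the AS30 controls, both at 3 h and neither given NPs, differed for *FOSL1* (-0.53 ± 0.15, SE, adjusted p = 0.0195) and *JUNB* (0.69 ± 0.19, adjusted p = 0.0156) in limma's fit of 18 arrays. That is 2 of 9 genes, where 26.8% of all probes were called, 15.6% higher and 11.1% lower. *FOSL1* lost its call without SM30 control B or AS30 3 h control A or C (adjusted p of 0.0522 to 0.0717 in limma), and *JUNB* without SM30 control C (0.0628). The second *JUNB* probe gave -0.29, not called, so its probes disagree in direction. For *FOSL1* the AS30 controls read 9.71, 9.44 and 9.84 and the SM30 controls 9.15, 9.11 and 9.13. *JUNB* lay wholly above, as 26.2% of all probes did, and *FOSB*, *FOSL1* and *MAFF* wholly below, as 18.9% did. These 2 control groups lay on different slides, so slide and culture cannot be told apart.

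Between 3 h and 22 h of recovery, the AS30 controls showed no called member, with 1.3% of all probes called. *FOS* was 1.89 ± 0.64 (SE, limma adjusted p = 0.173) higher at 22 h, at 11.96, 11.70 and 12.85 against 9.93, 10.63 and 10.27. These arrays do not overlap, as in the 7.95% of all probes that lay wholly above. The difference of *MAFF* was -1.01 ± 0.29 (limma adjusted p = 0.11) and that of *FOSL1* -0.61 ± 0.15 (adjusted p = 0.067), both wholly below, as were 6.07% of all probes. For *FOS*, the 22 h control A, which shared the slide of the 3 h controls, was 1.68 above their mean.

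Over the 6 groups, the mean signal of the brightest probes of *JUN*, *FOSL2*, *ATF3* and *MAFF* was highest after SM30. The *FOSL2* probe with a SM30 array below the controls was an exception, at 9.08 after SM30 and 10.24 after AS30 at 3 h. *JUN* came next after AS30 at 3 h, and the SM30, AS30 and 3 h AS30 control groups did not overlap in turn. The other neighbours in the order of *JUN* overlapped, with means from 12.61 to 12.75. For *FOSL2* the SM30 mean of 11.80, the AS30 3 h mean of 11.44 and that of its controls at 11.12 were also apart from each other. The share of all probes with the SM30 and AS30 arrays apart in this way was not computed. These arrays lay on different slides, and the SM30 and AS30 controls at 3 h alone differed at 26.8% of all probes. *MAFF* after SM30 (10.07) and after AS30 at 3 h (9.99) overlapped, as did *ATF3* after AS30 at 3 h with its controls. *FOS* and *FOSB* were highest in the 22 h controls, with means of 12.17 and 10.09. *FOSL1* and *JUND* were highest after AS30 at 3 h, and *JUNB* in the SM30 controls, at 14.44. The second *JUNB* probe was highest after AS30 at 3 h, at 9.84, with the SM30 controls at 8.91, so this order turns with the probe.

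Other bZIP genes that can pair with the family or bind related sites were a list of 22, of which 21 were measured. After SM30 6 of them rose and none fell, with a median of 0.27, where 4.35% of all probes were called higher and 3.13% lower. *CREB5*, a CRE-binding partner of JUN, rose by 3.58 (adjusted p = 0.00988), with pairs of 3.10, 3.18 and 4.45, on both of its probes. *CREM*, a CRE-binding protein with activator and repressor forms, rose by 1.93 ± 0.12 (SE, limma adjusted p = 0.00031) on its brightest probe, and 3 of its 4 probes were called. *DDIT3*, known as CHOP, rose by 1.30 (adjusted p = 0.0327 in limma), with pairs of 1.22, 1.48 and 1.20. After AS30 at 3 h 4 of the 21 rose, *CREM* by 1.33 and *DDIT3* by 1.38 among them, where 1.5% of all probes were called higher. At 22 h 1 did, where 2.54% were. *CREB5* gave 0.44 after AS30 at 3 h on its brightest probe, from pairs of 1.22 and -0.35, and 1.18 on its other probe, where SM30 gave 3.49. On the brightest probes, the SM30 minus AS30 differences of *CREB5* (3.14) and *CREM* (0.60) were not called, at adjusted p of 0.221 and 0.233 in limma.

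Among 25 kinases and inducers upstream of AP-1, all measured, 1 rose and 1 fell after SM30, with a median of 0.04, shares close to the 4.35% and 3.13% of all probes. *ELK3*, a ternary complex factor of the serum response, rose by 0.80 ± 0.16 (SE, limma adjusted p = 0.0216). *SRF*, the serum response factor that binds beside it, fell by 0.47 (adjusted p = 0.0438), and 2 of its 3 probes were called. Both had the same calls after AS30 at 3 h, with *ELK3* at 0.84 and *SRF* at -0.59 on its brightest probe. Of the 3 *SRF* probes 1 was called there, and another gave 0.44. After AS30 at 3 h 1 of the 25 rose and 2 fell, where 1.5% and 1.01% of all probes were called higher and lower. The other fall was that of *MAP3K1*, at -1.82 with no treated array and 2 control arrays well above background. Over all spots its means were 3.32 treated and 4.23 control. With the treated arrays set no lower than the lowest signal well above background on each, control minus treated was -0.48. No lower bound on this fall can therefore be given. At 22 h neither *ELK3* nor *SRF* was called. There *MAPK3* was called at 0.52 and *MAP2K7* at -1.02, where 2.54% and 1.04% of all probes were called higher and lower.

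Described AP-1 target genes were a list of 26, with 24 measured. After SM30 10 of them rose and none fell, with a median of 0.61, against the same 4.35% and 3.13% of all probes. The largest rise was that of *MMP1*, a collagenase gene with an AP-1 site in its promoter, at 7.09 ± 0.38 (SE, limma adjusted p = 0.000881) and pairs of 7.45, 7.03 and 6.81. *MMP10* rose by 4.60 (adjusted p = 0.00279), with 2 of its 3 control arrays well above background. *ITGA2*, an integrin subunit, rose by 2.89 from 2 pairs, and all 4 of its probes were called. After AS30 at 3 h 5 of the 24 rose and 1 fell, with *MMP1* at 6.04, where 1.5% and 1.01% of all probes were called higher and lower. At 22 h 3 of 23 rose and none fell, where 2.54% and 1.04% of all probes did. There *MMP1*, counted among the 3, had 1 measured pair, with 2 treated arrays and no control array well above background. Its call takes its spread from the pairs of the other comparisons, so it is not a replicated rise. With the controls set no lower than the lowest signal well above background on each array, the treated mean was 4.70-fold higher. That mean includes a treated array not well above background, so the value is not a strict lower bound. Members of these lists were picked with results of these data known, so their counts are a description.

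**Figure D4:**
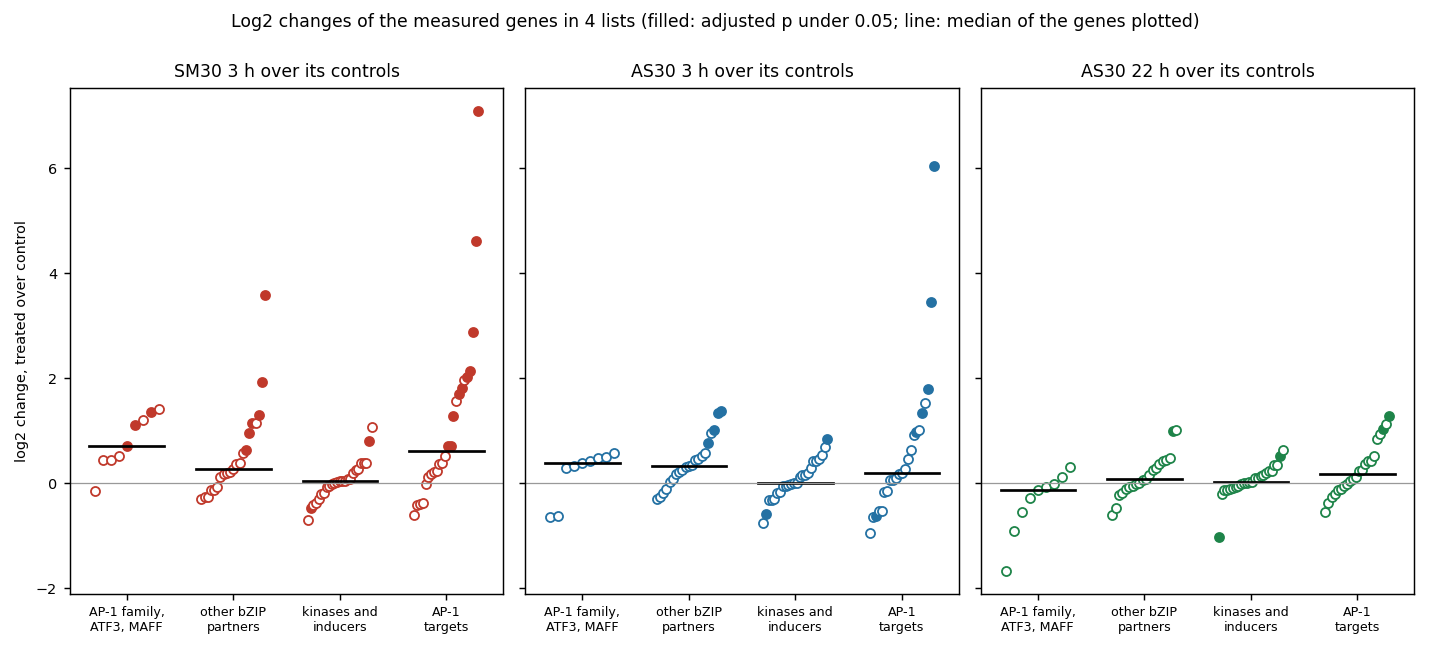
Log2 change, treated over control (vertical axis), of each measured gene in the 4 lists (horizontal axis) in 3 comparisons, sorted within a list. Filled points have an adjusted p under 0.05, the line is the median of the genes plotted, and genes with no array well above background in one of the groups are left out. *MMP1* is the top point after SM30 at 7.09 and after AS30 at 3 h at 6.04.

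The genes whose 9 ratios were most like those of *ATF3*, by Pearson correlation over the 9 pairs and 23030 probes, were *NSD2* (0.96), *ARVCF* (0.96) and *CD44* (0.95). Those most like *FOSL1* were *MARK3*, *RHOB* and *ZSWIM6*, all at 0.98. For *JUNB* they were *SLC5A11* (0.99), *CCDC72* (0.97) and *SYT15* (0.97). Within the family the closest pairs were *FOSB* with *FOSL2* (0.95) and *FOSB* with *ATF3* (0.93). The pairs of arrays share slides and treatment groups, so these values only describe the 9 ratios.

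Between 51.9% and 72.4% of spots were well above background on the 18 arrays, with the SM30 arrays at 69.0% to 72.4% and the AS30 controls lowest. The 6 epithelial markers were well above background on all arrays. Of the 4 leukocyte markers *PTPRC* was so on none and the other three on all. Of the 4 fibroblast markers *COL1A1* was so on all 18 arrays and *COL1A2*, *COL3A1* and *PDGFRB* on none. Among the endothelial markers *PECAM1* was so on none, *CDH5* on 1 array and *VWF* on 7. The summed leukocyte list, which here rests on *CD68*, *CD14* and *CD3E*, was 10.24 to 10.28 in log2 after SM30 and 9.67 to 9.75 in its controls. After AS30 it was 10.51 to 10.79 at 3 h, against 9.61 to 10.01, and 10.69 to 11.80 at 22 h, against 9.95 to 10.35. By gene, the log2 changes after SM30 were 0.97 for *CD68*, -0.24 for *CD14* and -0.56 for *CD3E*. After AS30 they were, in the same order, 0.97, 0.62 and 0.62 at 3 h and 1.67, -0.02 and -0.25 at 22 h. *CD68* was called higher at 22 h after AS30. The part of these values in the results above was not tested.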

How the data were processed

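RNA of 18 A549 cultures was measured on one-colour Agilent arrays. The authors deposited the scanner output of every array, written by Agilent Feature Extraction 10.5.1.1, whose spot intensity columns (processed signal, mean signal and background) are on a linear scale, with flags for each spot. They also deposited a table of quantile normalized intensity values, used here as an alternative. Columns not used numbered 0. Probe positions are those of the files, on hg18.

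The tools were limma (version 3.58.1) in R (4.3.3), with statmod (1.5.0) and data.table (1.17.8). Spots of control sequences were left out, log2 processed signals were quantile normalized, spots not positive and significant or marked as outliers were left out, replicate spots were averaged, and probes with over 33% missing values were removed. Limma was fitted to 9 log2 ratios as 3 classes, and to 18 arrays as 6 groups for the comparisons of controls, with 0.05 as the adjusted threshold. Intervals are at 95%. The number of arrays limits the precision. The fit was tested on simulated data with independent noise on each array and no slide effect, so that test cannot bear on the slides.

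The members, the lists and the rules were chosen with earlier results of these data known. All probes of the members were reported. Of each list, the 3 largest rises and falls among genes called after SM30 were named. For *ATF3*, *FOSL1* and *JUNB* the 3 most correlated genes were named. Alternatives covered scaling, background correction, filters, outlier spots, the deposited table, slide, pairing and each replicate left out.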

Additional observations from a re-analysis of the deposited data

Results flagged for a closer look

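For 5 probes every pair of one group moved one way and every pair of another the opposite way. In each case the difference between the responses had been tested in limma and was not called. After SM30 all 3 pairs of *FOSB* were above 0 and after AS30 at 3 h all 3 were below, with a difference of 2.06 (adjusted p = 0.286). The brightest *JUNB* probe showed the reverse, with a difference of -0.57 (adjusted p = 0.344). Such opposite signs were found in 4.87% of the probes measured in these 6 pairs.

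Between AS30 at 3 h and at 22 h, the pairs turned from above to below 0 for the brightest *FOSL1* probe (-0.60, adjusted p = 0.225) and for a pair of *FOSL2* probes (-0.77, adjusted p = 0.20, and -0.55, adjusted p = 0.174). The share over all probes was 4.92%.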

How the results depend on the processing

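Of the single-gene results under all alternatives, 1117 kept their side of the threshold, 23 passed it, 16 lost it, and 7 uncalled changes turned their sign by more than the SE. No called change turned its sign. After SM30, 3 genes were called. Probes well above background on all arrays gave 5, the mean of the 3 controls as divisor, which leaves out the controls' own spread, gave 5 (*FOSL1*, *FOSL2*, *JUN*, *JUND* and *MAFF*), and slide as a fixed block gave 0. Scaling to the 75th percentile gave 4, adding *ATF3*, and normexp gave 4, with *FOSB* (0.88) and *JUND* in place of *MAFF* (0.57). No filter on dim spots gave 2, without *MAFF*. Leaving out 1 pair gave 1 to 5. After AS30 at 3 h, where none was called, slide as a random block gave 3 and the mean of the controls 4. The mean of the controls also gave 1 (*JUNB*) at 22 h, 3 for SM30 minus AS30 (*FOSL2*, *JUN* and *JUNB*) and 2 for 22 h minus 3 h (*FOSL1* and *JUNB*). Leaving out 1 pair gave 0 calls in each of these comparisons. Between the controls at 3 h, leaving out 1 array gave 1 to 2. The controls at 22 h minus 3 h stayed at 0, and the single-gene values with 1 control array left out were an alternative chosen after seeing the data.

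The letters A, B and C were not shown to pair the arrays: the deviations of same-letter arrays correlated at -0.09 to 0.45, and 6 of 9 treated arrays correlated best with their own letter. Without the replicate block the SM30 comparison called 2518 probes in place of 2146, with the same 3 genes, and the AS30 comparisons called 1313 and 1408 in place of 720 and 1008, with no member. Over all probes, the count moved by over 1.5 times after SM30 without the dim filter (1292), with slide as a fixed block (335) and with the mean of the controls (9459). After AS30 at 3 h the same settings gave 274, 123 and 10002, and at 22 h 508, 325 and 8849, with slide as a random block at 3884 and 1926. Leaving out 1 pair gave 289 to 2721, 81 to 3060 and 2 to 1364. The cause was not tested. Signal over background limits *FOSB* and the dimmer *ATF3* probe at 22 h. The deposited table gave the same 3 genes after SM30.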
